A study of Mus musculus with 3 samples.

Results

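Transcript levels of the 6 TRAF adaptor genes Traf1 to Traf6, the receptor gene Cd40, the cIAP genes Birc2 and Birc3 and Tnfaip3, the gene of A20, were read from wounded primary mouse fibroblasts. The 10 members were chosen by gene name, with earlier results of these data known. All 10 were found among the 43472 rows of the deposited table. The cells came from tail tips of C57BL/6 mice, were scratched in culture and received the soluble micrograft (MG), the filtrate of mechanically disrupted mouse skin, together with PD0325901, an inhibitor of the kinase MEK, for 5 h. All 3 libraries are biological replicates of this MG + PD0325901 condition, and the labels name no animal, age or culture for any of them. Cells without MG or without the inhibitor were not analysed here, and every comparison is therefore between replicate libraries of a single condition. Tail-tip fibroblasts are a mixed primary culture, and in bulk RNA fewer cells of a type and less RNA per cell cannot be told apart.

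TRAF proteins are adaptors that bind the cytoplasmic tails of receptors of the TNF superfamily, such as CD40, and pass the signal to the kinases that activate NF-κB and the MAP kinases. TRAF2 recruits cIAP1 and cIAP2, ubiquitin ligases that modify RIPK1 and, together with TRAF3, keep the kinase NIK low by marking it for degradation. TRAF6 serves receptors of the IL-1 and Toll families as well, and A20 edits ubiquitin chains and thereby restrains NF-κB, which in turn induces the genes of A20, TRAF1, cIAP2 and CD40 in many cells. Fibroblasts at a wound meet these signals through TNF, IL-1 and CD40 ligand from immune cells.

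The libraries held between 17244505 and 27037783 reads on genes, recovered from the deposited normalized counts, that is, read counts divided by 1 size factor per library. A count of 0 allows up to 3 reads, which equalled between 2.11 and 3.56 normalized counts. All 9 fibroblast markers were above the minimum of 10 normalized counts on average, with Col1a1 between 154124 and 246175 normalized counts. Replicate 2 stood apart from the others at large, being over 2-fold below both in 5.09% and over 2-fold above both in 5.34% of 13152 genes with a mean of at least 10.

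For description the members were divided at a 2-fold range between libraries into a variable and an even set. The ranges were graded, with Birc3 at 2.00-fold and Traf2 at 1.56-fold, the latter above the all-gene median of 1.53-fold. Traf1, Cd40, Tnfaip3, Traf4 and Birc3 had a highest library over 2-fold above the lowest, which is 5 of 10 members against 27.0% of all genes, while Traf2, Traf3, Traf5, Traf6 and Birc2 stayed within 1.56-fold. Replicate 2 was the lowest library for Traf1, Traf2, Tnfaip3, Cd40, Birc2 and Birc3, which is 6 of 10 members against 37.5% of all genes. Replicate 3 was the highest library for Traf1, Traf2, Traf3, Traf5, Tnfaip3 and Birc3, 6 of 10 members against 27.8%. For Traf3 it was only 1.02-fold above replicate 2, and for Birc2 replicate 2 was only 1.07-fold below replicate 3. With libraries scaled to total reads, replicate 2 was highest for Traf3 and replicate 3 lowest for Birc2. Of the remaining places, replicate 1 was lowest for 3 members (33.9% of all genes) and highest for 2 (31.9%), replicate 2 was highest for 2 (40.3%), and replicate 3 was lowest for 1 (28.6%). Without replicate 2 only Traf1 kept a range over 2-fold between the remaining libraries, 1 of 10 members against 9.79% of all genes.

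**Figure D1:**
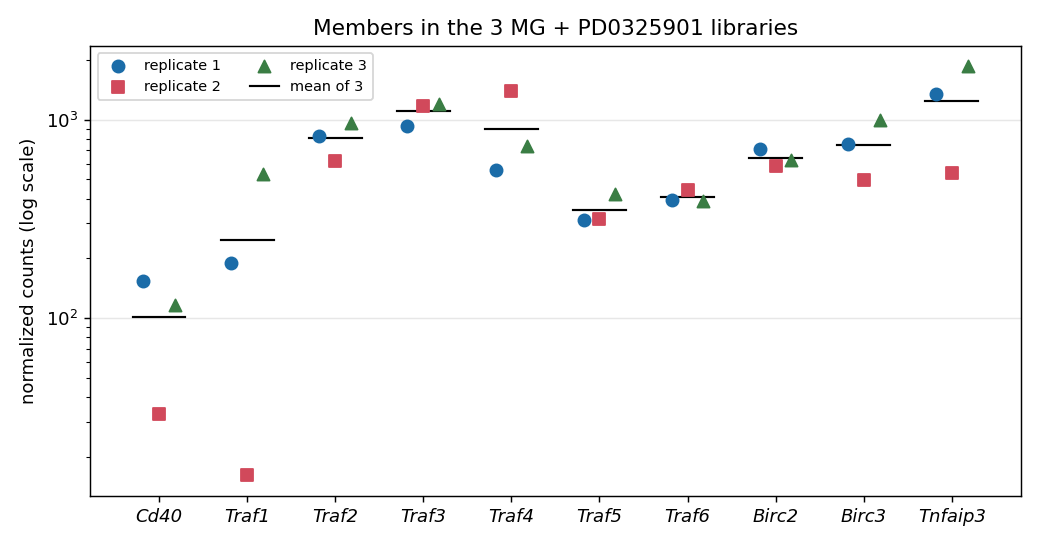
Normalized counts (log axis) of the 10 members in each of the 3 MG + PD0325901 libraries, with symbols for the replicates and a line for the mean. Replicate 2 lies far below the others for Cd40, Traf1 and Tnfaip3 and above them for Traf4, and the points of Traf6 and Birc2 lie close together.

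Cd40, the only receptor among the members, binds CD40 ligand and signals through TRAF2, TRAF3 and TRAF6. It had 154, 33.1 and 116 normalized counts in replicates 1, 2 and 3, on 177, 47 and 98 reads. Its mean was 101 ± 61.7 (SD, n = 3). Replicate 2 was low and the other libraries lay near each other. Replicate 1 was 4.64-fold above replicate 2, with a 95% exact counting interval of 3.35 to 6.55 (adjusted p = 1.15e-24, two-sided exact binomial test on the reads of the libraries with Benjamini-Hochberg adjustment over all genes). Between replicates 1 and 3 the fold was 1.32, with an interval of 1.03 to 1.71 and an adjusted p of 0.0555 by the same exact test. All these tests compare libraries, cover counting error only and treat reads as independent molecules. Counting error of the smallest Cd40 value was 14.6%.

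Cd40 is known from B cells, macrophages and dendritic cells, so leukocyte markers were read beside it. The T cell marker Cd3e had 0 reads in every library, and Ptprc, the pan-leukocyte CD45, was at most 1.74 normalized counts, under the floor. Of 14 leukocyte markers 13 were in the table and 4 passed the minimum, and the list summed to 417, 413 and 878 normalized counts in replicates 1, 2 and 3. The passing markers did not share an order of libraries. Lyz2, a lysozyme of myeloid cells, had 123, 62.7 and 601 normalized counts and Laptm5 had 1.74, 4.93 and 36.7, both highest in replicate 3. H2-Ab1, an MHC class II gene, had 208, 154 and 36.7, lowest in replicate 3, and Csf1r, a receptor of macrophages, had 57.3, 179 and 161, highest in replicate 2. Under the minimum, Tyrobp had 0, 2.11 and 15.4 normalized counts and was called higher in replicate 3 than in both others. Cd52 had 0.868, 0.705 and 9.48 and Itgam 0, 2.11 and 8.30, also highest in replicate 3. Cd74 had 14.8, 5.64 and 5.93, Cd79a 3.47, 0 and 2.37 and Flt3 5.21, 1.41 and 0, highest in replicate 1, as was Ptprc. The part of such cells in the Cd40 level was not tested.

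Traf1, an adaptor without the RING domain of its relatives, was the most variable member. It had 189, 16.2 and 535 normalized counts in replicates 1, 2 and 3, on 218, 23 and 451 reads. Each library was over 2-fold from the next, with replicate 2 lowest and replicate 3 highest. Replicate 3 stood 33.0-fold above replicate 2 (counting interval 21.7 to 52.6, adjusted p = 8.37e-158, exact binomial test) and 2.82-fold above replicate 1 (2.40 to 3.33). A range this wide was reached by 0.692% of the 13152 genes. Of the 4 leukocyte markers that passed, Laptm5 and Lyz2 were likewise highest in replicate 3, H2-Ab1 was lowest there and Csf1r was highest in replicate 2. Of those under the minimum, Tyrobp, Cd52 and Itgam were highest in replicate 3, and Ptprc, Cd74, Cd79a and Flt3 in replicate 1. The part of such cells in the Traf1 level was not tested.

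Traf2, the adaptor that recruits the cIAPs to TNF receptors, had 829, 619 and 962 normalized counts in the libraries of replicates 1, 2 and 3, with 803 ± 173 on average (SD, n = 3). Its order of libraries was that of Traf1, but the whole range was 1.56-fold. The ratio of Traf1 to Traf2 in normalized counts was 0.228, 0.0262 and 0.555 in replicates 1, 2 and 3. The lowest ratio was again that of replicate 2.

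Traf3, which holds NIK for degradation, had 928 normalized counts in replicate 1, 1173 in replicate 2 and 1199 in replicate 3, on average 1100 ± 150 (SD, n = 3). Replicate 1 was lower than replicate 2 by the exact binomial test (adjusted p = 5.70e-09), but within the 2-fold limit. Replicates 2 and 3 were 1.02-fold apart, with a counting interval of 0.945 to 1.11. Traf5, the closest relative of TRAF2 in function, had 313, 316 and 421 normalized counts in the same order, and replicates 1 and 2 were 1.01-fold apart, with an interval of 0.877 to 1.16. Both genes were within 1.35-fold across the libraries. An antisense gene, Gm26879, overlaps exons of Traf5. The library kit keeps the strand, but whether counting used it is not given in the sources used here.

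Traf6, the adaptor of IL-1 and Toll receptor signalling, was the most even member. Replicate 1 gave 393, replicate 2 444 and replicate 3 390 normalized counts, on average 409 ± 30.2 (SD, n = 3). The whole range was 1.14-fold, and 92.2% of all genes had a range at least that wide. None of the pairs of libraries passed the exact binomial test for Traf6, the lowest adjusted p being 0.0747 between replicates 1 and 2.

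Traf4, a member of the family known from epithelial and migrating cells more than from TNF receptors, went the other way. It had 557, 1397 and 737 normalized counts in replicates 1, 2 and 3, with replicate 2 above both. The fold of replicate 2 over replicate 1 was 2.51 (counting interval 2.29 to 2.74, adjusted p = 5.91e-102, exact binomial test), and over replicate 3 it was 1.89 (1.73 to 2.08). The ratio of Traf4 to Traf2 in normalized counts was 0.672, 2.26 and 0.766. Of the summed length-scaled level of the 6 TRAF genes, Traf4 held 28.3%, 51.0% and 28.8% in replicates 1, 2 and 3.

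Birc2 and Birc3, which encode cIAP1 and cIAP2 and are neighbours on chromosome 9, differed in evenness. Birc2 had 709, 584 and 626 normalized counts in the libraries of replicates 1, 2 and 3, on average 640 ± 63.8 (SD, n = 3), and a range of 1.21-fold. Birc3 had 750, 495 and 992 normalized counts in the same order, on average 746 ± 248 (SD, n = 3), lowest in replicate 2 and highest in replicate 3. Replicate 3 was 2.00-fold above replicate 2 for Birc3, with a counting interval of 1.81 to 2.22 that spans the 2-fold limit, and with libraries scaled to total reads the range was 1.87-fold. The ratio of Birc3 to Birc2 in normalized counts was 1.06, 0.848 and 1.59 in replicates 1, 2 and 3. After division by merged exonic length it was 0.967, 0.775 and 1.45. The higher gene differed between libraries on either scale, but in replicate 1 it depended on the scale. The genes share 65 stretches of 50 bases, the read length, out of 4579 in Birc2 and 5079 in Birc3 transcripts. Only uniquely mapped reads were kept, so reads from such stretches would be missing from both genes. Birc3 shared 7.56% of its 50-base stretches with any other gene, the highest share of the members.

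Tnfaip3 had 1349, 538 and 1853 normalized counts in the libraries of replicates 1, 2 and 3, on average 1246 ± 663 (SD, n = 3). It had the highest mean of the members before division by length. Replicate 3 was 3.44-fold above replicate 2 (counting interval 3.15 to 3.76, adjusted p = 3.57e-185, exact binomial test), and replicate 1 was 2.51-fold above replicate 2 (2.30 to 2.74). Replicates 1 and 3 were 1.37-fold apart (1.28 to 1.47). Cd40 and Traf1 were likewise over 2-fold lower in replicate 2 than in both other libraries, which makes 3 of 10 members, against 5.09% of all genes, and 0 members were over 2-fold above both, against 5.34%. Replicate 3 was over 2-fold above both others for Traf1 alone (1.31% of all genes) and below both for 0 members (2.52%), and replicate 1 was below both or above both for 0 members (2.13% and 2.49%).

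Over the pairs of libraries, a gene was called where the adjusted p was under 0.05 and the fold over 2. Replicate 2 was called lower than replicate 1 for Traf1, Tnfaip3 and Cd40, 3 of 10 members against 10.8% of 14768 genes, and higher for Traf4 alone, against 9.37%. Replicate 3 was called higher than replicate 2 for Traf1, Tnfaip3, Cd40 and Birc3, 4 of 10 members against 6.95% of 14342 genes, and lower for 0 members, against 9.30%. Between replicates 1 and 3 only Traf1 was called, higher in replicate 3, against 3.46% of 14314 genes, and 0 members were called lower, against 5.44%. These pairs share libraries, so their counts are not separate evidence.

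**Figure D2:**
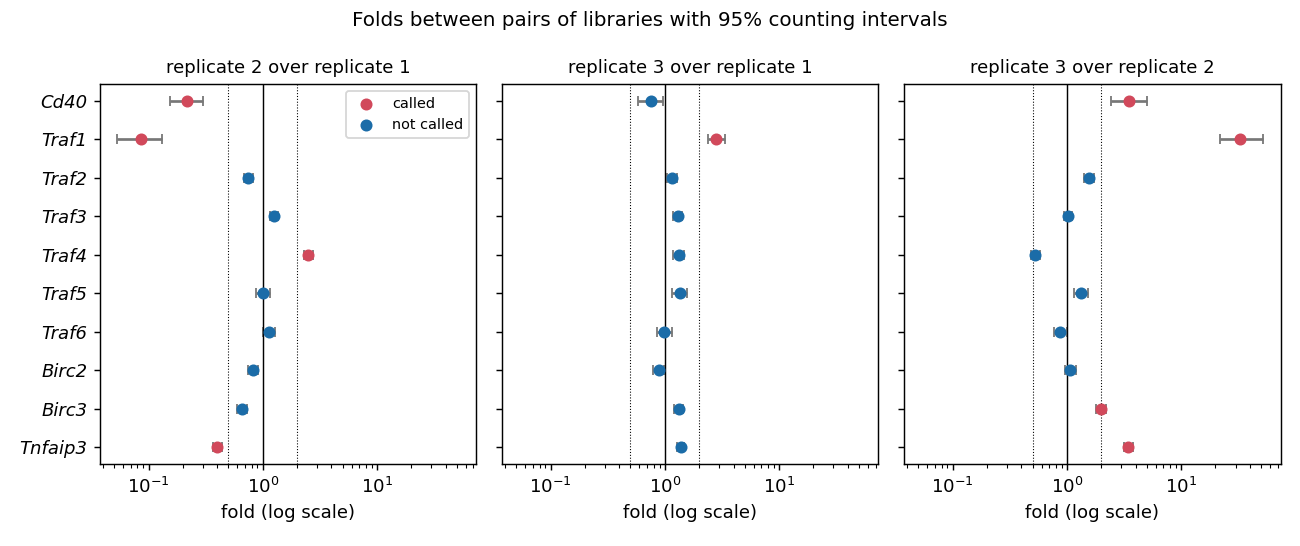
Fold between the libraries of each pair (log axis) for the 10 members, with 95% exact counting intervals, a solid line at 1-fold and dotted lines at the 2-fold limits, and red points for called genes. Most members lie between the dotted lines, Traf1 is called in every pair, and Birc3 sits on the limit between replicates 2 and 3.

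On a log2 scale with a pseudocount of 1, replicate 2 was set against the mean of replicates 1 and 3. The difference was -4.21 for Traf1, -1.98 for Cd40, -1.55 for Tnfaip3 and -0.80 for Birc3, and 1.12 for Traf4. The share of the 13152 genes with a difference at or below that of the member was 0.106% for Traf1, 1.78% for Cd40 and 3.31% for Tnfaip3. The other 5 members lay between -0.53 and 0.18. The median over the 10 members was -0.36, and over all genes 0.02.

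**Figure D3:**
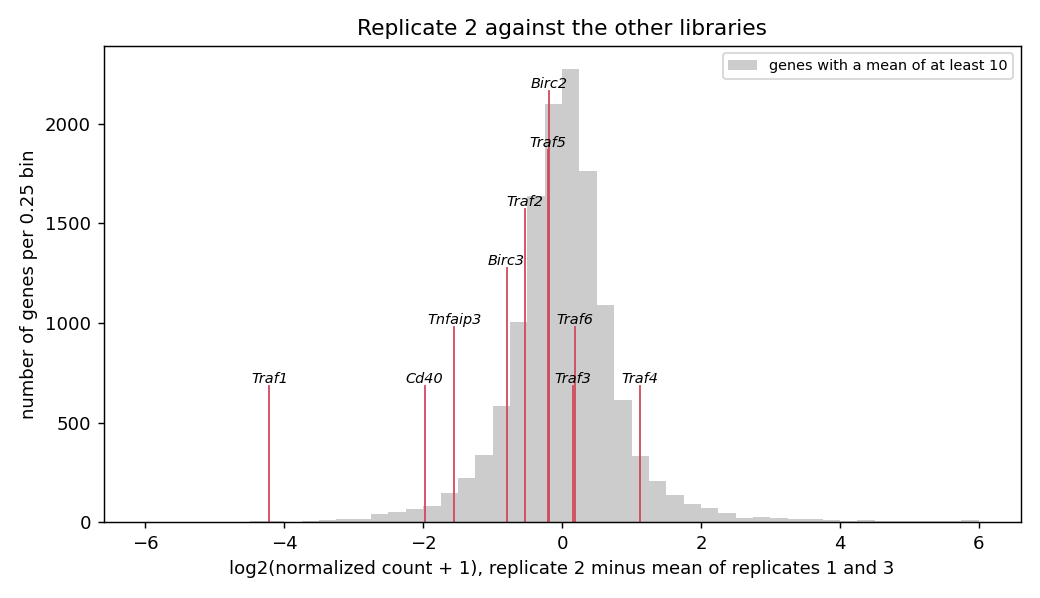
Histogram of the log2 difference between replicate 2 and the mean of replicates 1 and 3 for 13152 genes with a mean of at least 10 (values beyond 6 are drawn in the end bins), with red lines for the members. Traf1, Cd40 and Tnfaip3 stand in the left tail, Traf4 on the right shoulder and the other members near the centre.

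The stretches just before the gene starts were read from RefSeq promoter windows (GRCm38.p6, 250 bases before to 50 after each start). Windows were found for 9 of the 10 members, all but Cd40. The κB consensus, the binding motif of NF-κB, was in windows of 2 members, Tnfaip3 and Traf3, and in 8.46% of 32851 windows overall. The AP-1 motif TGANTCA was in a window of Tnfaip3 and in 7.81% of all windows. Both strands were searched, and no match in the members overlapped another. In the window of Tnfaip3 κB matches began 125 and 12 bases before the start, and the AP-1 match lay just upstream of the first. In that of Traf3 the κB match began 10 bases before the start. Shown is a stretch of equal length for each variable member with a window, and for Traf3 as an even member with a match, 5′ to 3′ on the gene's strand, with the matches in capitals. Each stretch is the nearest one before the RefSeq start that holds no annotated exon of its gene, which skips 39 bases for Traf4 and 16 for Birc3. The stretch of Tnfaip3 lies within the gene as GENCODE annotates it, since another annotated transcript starts further upstream. A match is a description of the letters and not of binding, and a window without one says nothing on the factor.
Tnfaip3, chr10:19015411-19015546, minus strand: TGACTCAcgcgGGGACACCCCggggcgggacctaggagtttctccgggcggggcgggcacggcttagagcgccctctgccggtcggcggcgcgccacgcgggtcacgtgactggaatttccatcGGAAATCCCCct
Traf3, chr12:111166234-111166369, plus strand: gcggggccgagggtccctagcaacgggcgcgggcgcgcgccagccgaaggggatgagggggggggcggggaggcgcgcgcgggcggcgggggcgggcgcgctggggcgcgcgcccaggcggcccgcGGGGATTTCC
Traf1, chr2:34961773-34961908, minus strand: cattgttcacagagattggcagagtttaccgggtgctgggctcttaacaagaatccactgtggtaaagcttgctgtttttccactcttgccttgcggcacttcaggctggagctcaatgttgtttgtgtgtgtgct
Birc3, chr9:7873187-7873322, minus strand: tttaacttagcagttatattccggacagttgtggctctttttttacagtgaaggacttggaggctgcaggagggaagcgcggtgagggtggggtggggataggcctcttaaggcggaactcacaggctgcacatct
Traf4, chr11:78165590-78165725, minus strand: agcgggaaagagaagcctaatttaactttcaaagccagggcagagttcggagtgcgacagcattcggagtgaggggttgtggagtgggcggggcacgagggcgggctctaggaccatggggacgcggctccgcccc
Of the members shown, Tnfaip3 and Traf3 had matches in their windows, and the windows of Traf1, Birc3 and Traf4 had none. Cd40 had no window to read. A link between matches and the ranges between libraries was not tested.

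In the GENCODE annotation of GRCm38 the genes lie on 6 chromosomes. Traf1 (2, 34941750 to 34961772), Traf2 (2, 25517982 to 25546940), Traf6 (2, 101678429 to 101701669) and Cd40 (2, 165055627 to 165072948) are on chromosome 2. Birc2 (9, 7818227 to 7837064) and Birc3 (9, 7848699 to 7873186) follow each other on the minus strand of chromosome 9. Traf5 is on chromosome 1 (191997205 to 192092559), Tnfaip3 on chromosome 10 (19000910 to 19015657), Traf4 on chromosome 11 (78158499 to 78165589) and Traf3 on chromosome 12 (111166370 to 111267153).

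Levels of different genes were compared after division by the merged exonic length, as normalized counts per kb. Traf4 was first with a length-scaled level of 273 ± 134 (SD, n = 3), followed by Tnfaip3 with 172 ± 91.8, Traf2 with 158 ± 34.0, Traf3 with 150 ± 20.4, Birc3 with 149 ± 49.6 and Birc2 with 140 ± 13.9. None of these neighbours kept its order in all 3 libraries, and their means were closer than the larger SD of each pair. Below them Traf5 had 76.6 ± 13.5 normalized counts per kb, Traf6 51.9 ± 3.83, Cd40 29.7 ± 18.1 and Traf1 28.0 ± 29.9. Birc2 exceeded Traf5, Traf5 exceeded Traf6 and Traf6 exceeded Cd40 in every library, and Cd40 exceeded Traf1 in 2 of 3. The Traf1 level rested on replicate 3, without which its mean normalized count was 103 in place of 247. In replicate 3 Traf1 reached 60.6 normalized counts per kb, above Traf6 with 49.5 and Cd40 with 34.1. Divided by the longest transcript in place of merged exons, Traf5 had a mean of 168 normalized counts per kb, above Traf3 with 156, and Traf1 had 71.8, above Traf6 with 66.3. Cd40, Traf6 and Traf1 were the lowest members by either length.

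**Figure D4:**
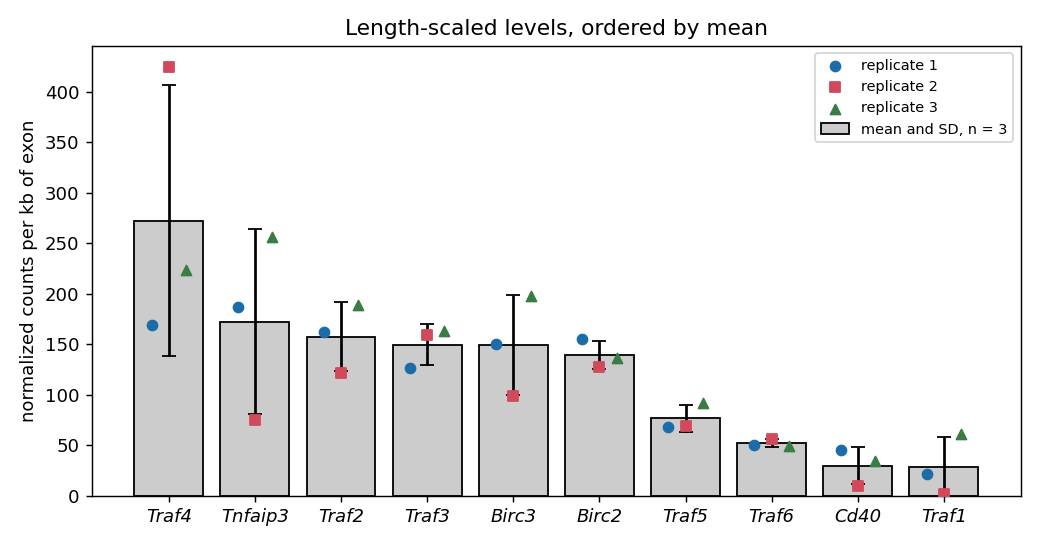
Normalized counts per kb of merged exon for the 10 members, ordered by mean, with bars for the mean, whiskers for the SD over 3 libraries and symbols for the replicates. The points of the first 6 genes overlap, and those of Cd40 and Traf1 lie lowest except for Traf1 in replicate 3.

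The pattern over the 3 libraries was compared with that of 9989 other genes with a mean of at least 100, as the root mean square difference of centred log2 values. Of the variable members Traf1 had the fewest genes near it, since 1 gene, Tnfrsf26, lay within 0.2 of it. The log2 values were not scaled, so a wide range by itself leaves few genes within that limit. Tnfrsf26, a receptor of the TNF superfamily, had 109, 6.34 and 242 normalized counts across replicates 1, 2 and 3 and a difference of 0.19, followed by Mmp9 with 0.31 and Lamb3 with 0.55. Among the genes nearest to Cd40 were Penk at 0.04 and the transcription factor gene Cebpb at 0.05, with 41 genes within 0.2. Nearest to Tnfaip3 were Trib3, Tmem154 and Cd82, with 64 genes within 0.2. For Traf4, nearest to Btaf1, Snx25 and Lgalsl, and for Birc3, nearest to Ctsk, Cdh17 and Fes, 350 and 603 genes lay that close. A pattern over 3 libraries holds little information, and many genes share the common ones.

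Other genes of the pathway were read from 8 lists with 98 genes, of which 70 had a mean of at least 10 normalized counts. A range over 2-fold was found for 15 of the 70 genes (21.4%), against 27.0% of all genes, and 31 were lowest in replicate 2, against 37.5%. Their median log2 difference of replicate 2 against the others was -0.05. Replicate 2 was called higher than replicate 1 for 5 and lower for 6 of 77 pathway genes tested, against 9.37% and 10.8% of all genes. Replicate 3 was called higher than replicate 2 for 7 and lower for 1 of 75, against 6.95% and 9.30%, and higher than replicate 1 for 3 and lower for 0 of 76, against 3.46% and 5.44%. The genes named beyond the leading members of each list were picked after their values were seen.

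Of 17 TNF superfamily ligand genes 5 passed the minimum, 4 of them with a range over 2-fold, against 27.0% of all genes. Their median log2 difference of replicate 2 was -0.66. Tnf had 52.1, 3.52 and 35.6 normalized counts in replicates 1, 2 and 3, on 60, 5 and 30 reads, and Tnfsf11, the gene of RANKL, had 394, 35.9 and 248. Both were called lower in replicate 2 than in each other library, and Tnfsf12, the gene of TWEAK, with 583, 289 and 360, only against replicate 1. Tnfsf15 went another way, with 4.34, 10.6 and 15.4 normalized counts, and was called higher in replicate 3 than in replicate 1. Tnfsf9 was even, with 175, 192 and 191 normalized counts. Cd40lg, the ligand of CD40, had 0 reads in every library, which allows at most 3 reads in each.

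Of 19 receptor genes 10 passed, with a median log2 difference of -0.42. A range over 2-fold was found for 3 of the 10, against 27.0% of all genes, and 7 were lowest in replicate 2, against 37.5%. Tnfrsf12a, the receptor of TWEAK, had the highest length-scaled level with 10772, 6557 and 11023 normalized counts in replicates 1, 2 and 3, and Tnfrsf1a, the main TNF receptor, had 3918, 4493 and 4343. Eda2r was called higher in replicate 2 than in both others, with 533, 1503 and 478 normalized counts. Tnfrsf11a, the receptor of RANKL, was called higher in replicate 3 than in both others, with 72.1, 47.9 and 179. Tnfrsf4, with 10.4, 26.8 and 14.2, was called higher in replicate 2 than in replicate 1.

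In the complex at the receptor 19 of 20 genes passed and the median log2 difference of replicate 2 was -0.03. Its leading genes were Ripk3, a kinase of necroptosis, with 2411, 4183 and 3018 normalized counts, and Ube2n, a ubiquitin-conjugating enzyme, with 3545, 2575 and 2692. Only Ripk1 and Ikbke, 2 of the 19, had a range over 2-fold, against 27.0% of all genes. Ripk1, the kinase modified by the cIAPs, had 285, 490 and 577 normalized counts across replicates 1, 2 and 3 and was called between replicates 1 and 3. Ikbke, an IκB kinase relative, had 1158, 660 and 1659 and was called between replicates 2 and 3.

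In the NIK branch, on which TRAF3 and the cIAPs act, 4 genes were read. Replicate 2 was called lower than replicate 1 for 1 of them, against 10.8% of all genes. Replicate 3 was called higher than replicate 2 for 2, against 6.95%. Relb had 1065, 485 and 1158 normalized counts across replicates 1, 2 and 3 and was called lower in replicate 2 than in both others. Nfkb2 had 2612, 1813 and 3673, a range of 2.03-fold, and was called between replicates 2 and 3. Chuk had 1048, 1640 and 940, highest in replicate 2, and its range of 1.75-fold lay under the limit for a call. Map3k14, the gene of NIK, had 184, 203 and 222 and was not called.

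Among 11 partners of A20 and other deubiquitinase genes, all of which passed, the median log2 difference was -0.24. Tnip3, the gene of ABIN-3, rested on 23, 5 and 15 reads in replicates 1, 2 and 3 and was called lower in replicate 2 than in both others. Itch, a ubiquitin ligase that works with A20, had 877, 1772 and 1036 and was called higher in replicate 2 than in replicate 1. The leading genes by length, Rnf11 with 4196, 2978 and 3339 and Zc3h12a with 1527, 1533 and 3002 normalized counts, were not called.

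Of 10 genes of other IAPs and their antagonists 5 passed, with a median log2 difference of 0.46. Xiap, Birc6 and Birc5 had 0.75, 0.71 and 0.46, and the antagonist genes Htra2 and Diablo had -0.08 and -0.33. Birc6 was called higher in replicate 2 than in replicate 1, with 887, 1783 and 1341 normalized counts in replicates 1, 2 and 3. Htra2, with 1216, 1106 and 1121, and Birc5, with 725, 796 and 463, led the list by length and were not called. All 10 adaptor genes of IL-1 and Toll receptors passed, 0 had a range over 2-fold, against 27.0% of all genes, and the median was 0.15. Myd88 had 672, 767 and 875 and Irak1 949, 1580 and 1261 normalized counts. These genes act with TRAF6. The range of Traf6 was 1.14-fold, while those of Irak1, Tirap and Irak3 were 1.67-fold, 1.69-fold and 1.71-fold, against an all-gene median of 1.53-fold. Of 7 TRAF-related and TRAF-interacting genes 6 passed, with a median of 0.12. Sqstm1, the gene of the scaffold p62, had 36536, 15994 and 27879 normalized counts and was called lower in replicate 2 than in replicate 1, and Traf7 had 1685, 2561 and 2304.

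**Figure D5:**
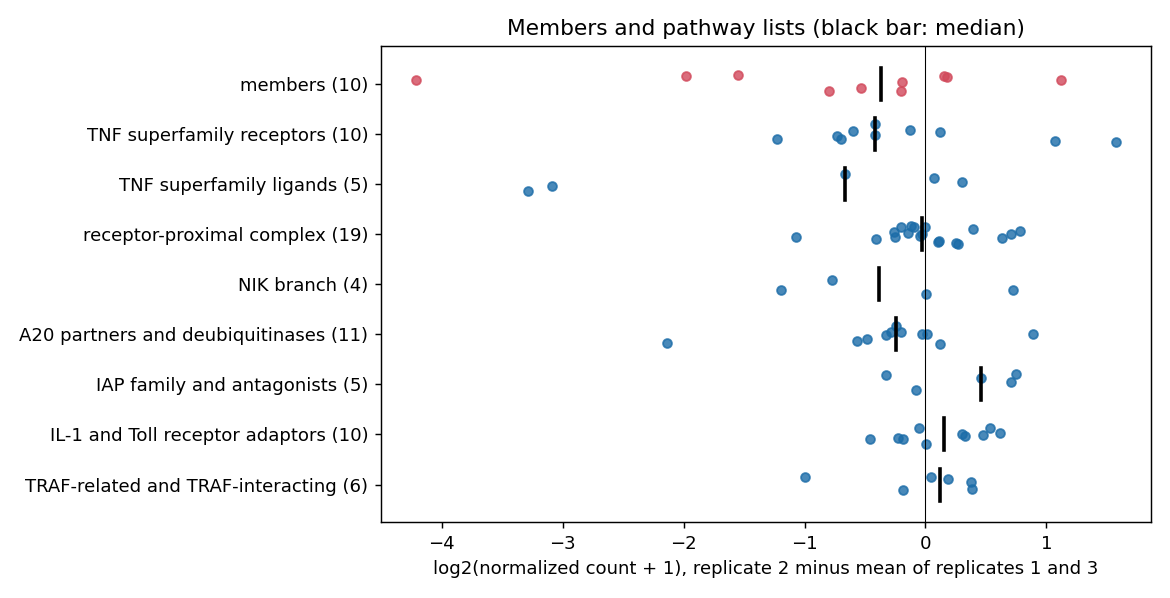
Log2 difference between replicate 2 and the mean of replicates 1 and 3 for the 10 members and for each pathway list, with 1 point per gene with a mean of at least 10, the number of genes in parentheses and a black bar at the median. Traf1 and the ligands Tnf and Tnfsf11 lie lowest, and the adaptors of IL-1 and Toll receptors lie between -0.46 and 0.62.

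Markers of other cell types were low or uneven. Of 8 keratinocyte markers 2 passed, and Krt5, Krt14, Krt15 and Krt1 were at most 2.37 normalized counts in any library. The list summed to 250, 156 and 143 normalized counts in replicates 1, 2 and 3. Of 7 endothelial markers 2 passed, with sums of 93.8, 248 and 56.9, of which Tek held 185 in replicate 2, while Cdh5 and Emcn were at most 1.19. Egfl7, which also passed, had 69.5, 53.6 and 49.8 normalized counts. Of 5 skeletal muscle markers only Acta1 passed, with 2429, 7286 and 5586 normalized counts. Of the 9 fibroblast markers 3 had a range over 2-fold, against 27.0% of all genes, and the median log2 difference of replicate 2 over the 9 was -0.03. Thy1 was called higher in replicate 2 than in both others, with 2031, 15760 and 1652 normalized counts, and Lum and Dcn were called lower, with 5073, 289 and 1164 and with 3661, 1723 and 3659. The others, such as Vim with 85416, 94183 and 104067, were within 2-fold. The part of such differences in the levels of Traf1, Cd40, Tnfaip3 and Traf4 was not tested.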

How the data were processed

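RNA-seq values of 3 libraries of 1 condition were used, and groups were taken from the sample titles. A further 3 columns matched no sample and were not used. Per the methods and the submitters' processing notes, single-end reads of 50 bases were mapped to mm10 by TopHat2 2.0.13, only unique alignments were kept, and HTSeq 0.5.3p3 and DESeq served for counting and analysis. The gene annotation and strand setting are not given in the sources used here. The values deposited by the authors are a signal in normalized counts, that is, counts over a library's size factor. Multiplied by that factor, 100% of values came out whole within 0.01, which gave back the reads. Depth was 22540518, 27037783 and 17244505 reads in replicates 1, 2 and 3.

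For each pair of libraries, genes with 10 or more reads in sum entered an exact binomial test (two-sided, Benjamini-Hochberg over all genes), with calls at 0.05 and over 2-fold. Intervals and floors cover counting error only. On simulated pairs with 200 genes changed 4-fold, 200, 199 and 200 were found for replicates 1 and 2, 1 and 3 and 2 and 3, with 4, 1 and 1 false calls among 14778, 14358 and 14541 genes. The simulated libraries held counting error only and no spread between cultures. Their false calls therefore check the computation and do not describe replicate cultures. Lengths came from GENCODE M21 (GRCm38, the build of mm10). TMM factors came from edgeR 4.0.16 in R 4.3.3. Python 3.11.15 with scipy 1.17.1 was used for the rest. Adgre1, 1 marker, was not found under its symbol, and 27 rows named as dates were matched to no listed gene.

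Genes named were the 10 members, the 2 highest per kb of each pathway list, list genes with a mean of at least 10 and a range over 4-fold, the 3 nearest patterns of each member with a mean of at least 100 and a range over 2-fold, and markers. Values of 2 genes that this rule names are not reported here. The members and lists were chosen with earlier results of these data known. The alternatives were scaling by total reads or TMM, other minimums, fold limits, pseudocounts and lengths, and each replicate left out.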

Additional observations from a re-analysis of the deposited data

How the results depend on the processing

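No paired analysis was possible because all 3 libraries belong to the same condition. With each replicate left out, between 1 and 4 members had a range over 2-fold, against 5 with all libraries, and the lowest count was that without replicate 2. Without a fold limit 8, 7 and 7 members were called between replicates 1 and 2, 1 and 3 and 2 and 3, by construction, against 4, 1 and 4. Under the other alternatives these counts, and the count of members lowest in replicate 2, stayed within 1.5 times. Scaling to total reads left 4 members over the 2-fold range, without Birc3, and 5 lowest in replicate 2, without Birc2. Under it the highest library of Traf3 was replicate 2 in place of replicate 3. The mean levels of the 10 members moved by less than 1 SD under both scalings. Without replicate 3 the mean of Traf1 was 103 normalized counts against 247 with all libraries. Ranks per kb changed for 9 members with the longest transcript, 8 with no division by length and 7 without replicate 2. The smallest counts were those of Traf1 and Cd40 in replicate 2, the deepest library, with 23 and 47 reads.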
